A study of Sus scrofa with 9 samples.

Results

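Basic fibroblast growth factor (bFGF, the product of FGF2) was added at 50 ng/mL to an osteogenic induction medium (OIM), and the expression of every gene in porcine valvular interstitial cells (PVICs) was compared with that in OIM alone. The members are the 19535 gene rows of the deposited count table, and the comparison uses 6 of the 9 libraries of the study, 3 with bFGF in OIM and 3 with OIM alone. PVICs are the mesenchymal cells of the aortic valve leaflet. They came from wild-type pigs aged 4 to 5 months, after the endothelium of the leaflets had been scraped off, and they were grown on plastic. OIM holds added phosphate, ascorbic acid and insulin, so both groups received these and only the bFGF group received the growth factor as well. The labels give 3 days of treatment, whereas the study's methods give a shorter time before RNA extraction. The remaining 3 libraries, from PVICs in plain DMEM, entered the fit only to help estimate the spread between libraries. Neither the labels nor the methods say how many pigs were used or whether the 3 libraries of a group are separate cultures. The p-values therefore measure only the spread between these libraries, which may be technical.

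FGFs bind tyrosine kinase receptors on the cell surface together with heparan sulfate chains. The receptor passes the signal through the adaptor FRS2 to RAS and the ERK kinases, which act on ETS, EGR and AP-1 transcription factors. The same pathway induces its own inhibitors, the Sprouty and SPRED proteins and the ERK phosphatases DUSP4, DUSP5 and DUSP6. In mesenchymal cells FGF2 is known as a mitogen and as an opponent of the TGF-beta-driven myofibroblast state, in which cells make contractile stress fibres and fibrillar collagen. In calcific valve disease interstitial cells are known to take on myofibroblast and bone-like expression.

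The OIM libraries held 57682710 to 67371523 gene counts and the bFGF libraries 46773376 to 48270827. The 10 most abundant genes held 12.7% to 13.5% of the counts in OIM and 8.35% to 8.45% in bFGF. Levels are given as counts-per-million values (CPM) on the TMM-scaled library size, TMM being edgeR's scaling by a trimmed mean of gene ratios. OIM replicate 2 stood apart from the other OIM libraries. The mean chi-square per gene between it and the others was 19.1 and 19.2, against 4.68 to 5.88 for the other pairs within a group. Over 306 genes called with at least a 4-fold difference and at 10 CPM or more, it lay a median of 11.4% of the way from the OIM mean to the bFGF mean, and 90.5% of these genes were shifted that way. Leaving it out gave 2584 rises and 2498 falls with bFGF, and counts for gene lists without it are given below wherever they differ from the main ones by more than 1 gene in either direction. Of the interstitial markers, VIM, COL1A1, COL1A2, COL3A1 and FN1 were among the most abundant genes in both groups, and 14 of 14 markers were measured. The 9 epithelial and red cell markers in the table were too low to test, and PTPRC, the pan-leukocyte marker, stayed at or below 0.442 CPM in the group means.

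The response was broad and close to even in its 2 directions. Of 13662 genes tested with edgeR's quasi-likelihood test, 2420 were called higher with bFGF (17.7%) and 2519 lower (18.4%), so that 36.2% of all genes tested were called. Called means here that the Benjamini-Hochberg adjusted p was 0.05 or less and that the log2 fold change was 0.5 or more in size. The libraries of the 2 groups did not overlap for 72.1% of the genes tested, so separate groups alone are the usual case in these data. The median log2 fold change over all genes was -0.003, with quartiles of -0.41 and 0.37. Without TMM, on library totals alone, the median of all genes shifted to 0.22, and the split became 3733 higher and 1694 lower. The shares called given below for gene lists are in both directions, beside 36.2% of all genes, where no direction is named. Falls near the fold limit lost their calls on that scale, such as that of COL3A1 (-0.72 with TMM, -0.50 without), and the same shift applies to every fall given below. Among the 2387 genes with a group mean of at least 100 CPM, 372 were higher and 539 lower, with a median of -0.09. Changes of at least 8-fold were found for 103 genes called higher and 151 called lower, but for only 6 and 11 of these at 100 CPM or more. Bulk RNA cannot separate fewer cells of a type from less RNA per cell in any of these results.

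**Figure D1:**
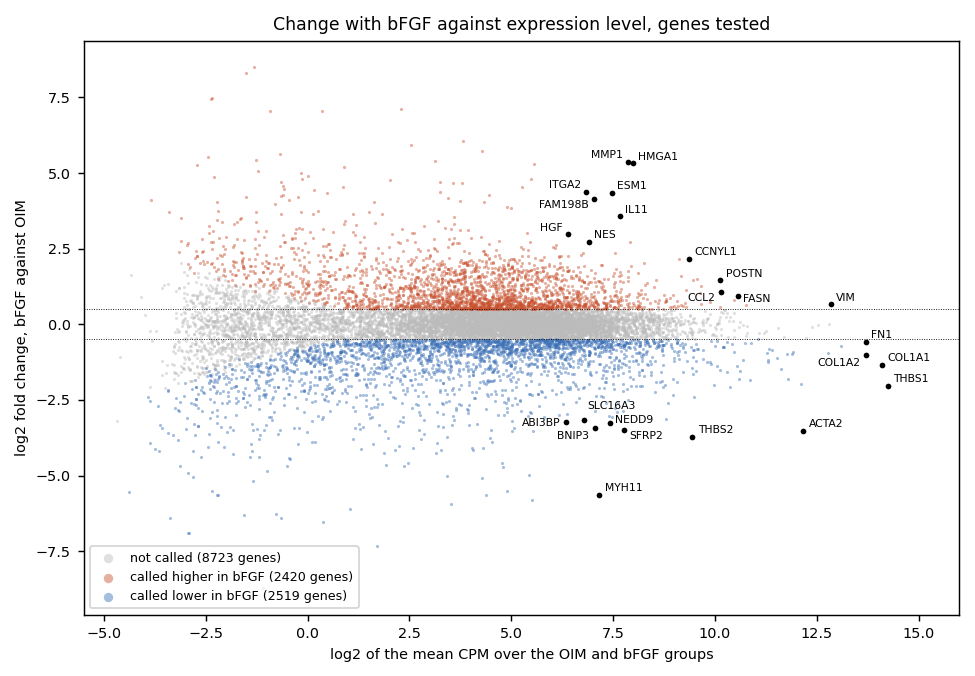
Log2 fold change (bFGF against OIM) of the 13662 genes tested, against the log2 of their mean CPM over both groups. Red points are the 2420 genes called higher, blue points the 2519 called lower, grey points the rest, and the named genes are the 8 largest fold changes in each direction at 100 CPM or more and the 5 largest CPM differences in each direction; the most abundant genes, at the right, lie mostly below 0.

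The most abundant genes of the interstitial cell lost part of their share. THBS1 (chr1:131728781-131746098, Sscrofa11.1, minus strand) encodes thrombospondin-1, a matricellular protein that activates latent TGF-beta. It stood at 32962, 29165 and 31603 CPM in OIM replicates 1 to 3 and at 7291, 7904 and 7587 CPM in bFGF. Every bFGF library was far below every OIM library, and the means were 31243 ± 1924 and 7594 ± 306 (SD, n = 3, as for every value with ± below), a log2 fold change of -2.04 (SE 0.041, edgeR adjusted p = 8.22e-19). COL1A1 (chr12:26379087-26397180), the alpha-1 chain of type I collagen, fell from 26115, 23879 and 25145 CPM to 9735, 10140 and 9782 CPM, by 1.34 on the log2 scale. Its partner COL1A2 fell by 1.0 and the cell adhesion protein fibronectin, FN1, by 0.58, from 16061 ± 135 to 10713 ± 326 CPM. Per kilobase of annotated exon, the levels of THBS1, COL1A1 and COL1A2 went from 5387, 4079 and 3491 CPM per kilobase to 1309, 1610 and 1740 CPM per kilobase, so their order reversed. The summed share of the 20 genes that lost most fell by 8.59 percentage points of the counts, and that of all genes that declined in share fell by 19.1 points. The 20 that gained most took up only 2.09 points.

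Fewer very abundant genes rose. VIM, the mesenchymal intermediate filament vimentin, rose from 5520, 6066 and 5499 CPM in OIM to 9048, 8908 and 9069 CPM in bFGF, with no overlap (log2 fold change 0.66). Periostin (POSTN), a matricellular protein of valve and bone, rose from 600 ± 44.4 to 1645 ± 31.4 CPM, which is 1.46 on the log2 scale. FASN, the fatty acid synthase, rose by 0.93 and the monocyte chemokine CCL2 by 1.08. CCNYL1, a cyclin Y-like protein, rose from 240 ± 25.2 to 1076 ± 23 CPM (log2 fold change 2.17).

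The largest fold increases among abundant genes fell on a collagenase, a chromatin protein, an integrin and secreted factors. HMGA1 (chr7:30320090-30329413), an architectural chromatin protein of proliferating cells, had 10.1, 18.6 and 8.0 CPM in OIM and 498, 491 and 500 CPM in bFGF. MMP1 (chr9:33411738-33420205, minus strand), the interstitial collagenase that cuts type I and III collagen, had 7.84, 15.4 and 9.42 CPM in OIM against 461, 456 and 453 CPM in bFGF. OIM replicate 2 was the highest OIM library for both genes, and neither gene came near the bFGF range in any OIM library. The log2 fold changes were 5.32 (SE 0.17, edgeR adjusted p = 5.01e-16) for HMGA1 and 5.37 (SE 0.14, adjusted p = 3.21e-17) for MMP1. ITGA2, the alpha-2 subunit of a collagen-binding integrin, rose from 9.04, 12.7 and 9.52 CPM to 227, 224 and 205 CPM (4.39 on the log2 scale). ESM1, a secreted proteoglycan, rose by 4.35, FAM198B by 4.14, the cytokine IL11 by 3.57, the MET ligand HGF by 2.98 and the intermediate filament NES by 2.73. These 8 genes were at 10.4 to 31.2 CPM in OIM on average and at 149 to 496 CPM in bFGF.

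The largest decreases among abundant genes fell on smooth muscle, matrix, Wnt and metabolic genes. MYH11 (chr3:7002667-7143093), the smooth muscle myosin heavy chain, had 325, 182 and 337 CPM in OIM and 5.05, 6.42 and 5.41 CPM in bFGF. ACTA2 (chr14:100868145-100886732, minus strand), the alpha-smooth muscle actin that marks myofibroblasts, had 9210, 6852 and 9286 CPM in OIM and 704, 799 and 712 CPM in bFGF. OIM replicate 2 was the lowest OIM library for both, and still several-fold above every bFGF library. MYH11 fell by 5.64 (SE 0.19, edgeR adjusted p = 8.85e-16) and ACTA2 by 3.52 (SE 0.084, adjusted p = 9.86e-18) on the log2 scale. THBS2, a relative of THBS1, fell from 1296 ± 203 to 97.8 ± 5.11 CPM (log2 fold change -3.73). SFRP2, a secreted Wnt modulator, fell by 3.51, BNIP3, a mitophagy protein, by 3.43, the adhesion scaffold NEDD9 by 3.27, the matrix protein ABI3BP by 3.23 and the lactate exporter SLC16A3 by 3.16.

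**Figure D2:**
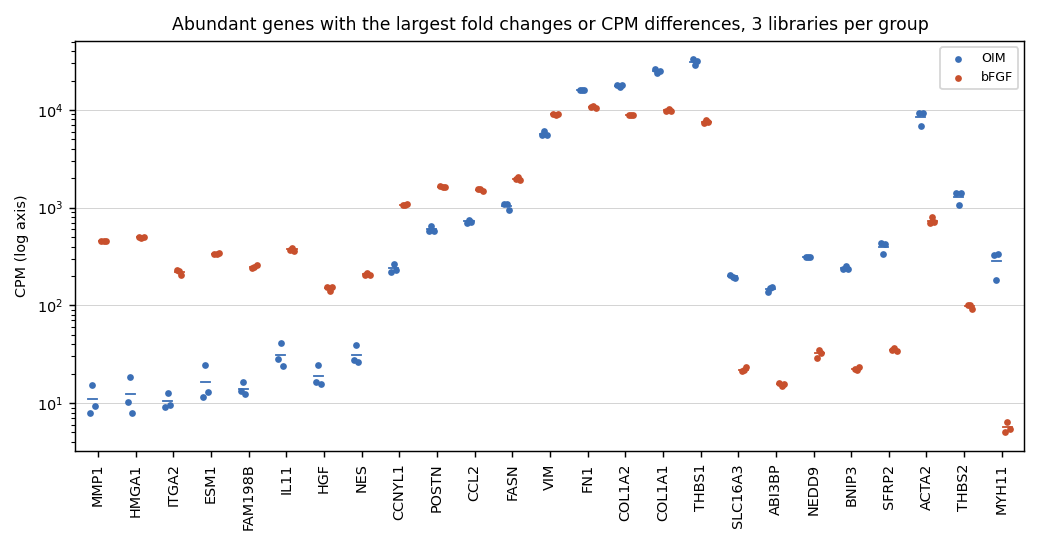
CPM (log axis) of the 8 abundant genes with the largest fold change and the 5 with the largest CPM difference in each direction, 1 point per library, 3 OIM (blue) and 3 bFGF (red) libraries, bars at the group means. The groups are separate for every gene, and the point that lies nearer to the bFGF group for HMGA1, MMP1, ESM1, ACTA2 and MYH11 is OIM replicate 2.

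Of the FGF receptors, 2 were expressed at a level above trace. FGFR1 had 195, 196 and 186 CPM in OIM and 228, 226 and 223 CPM in bFGF, a log2 fold change of 0.23 (adjusted p = 1.72e-05) that stayed under the fold limit. FGFR2 (chr14:131183095-131285001, minus strand) had 134, 118 and 135 CPM in OIM and 16.4, 16.3 and 15.8 CPM in bFGF, a fall of 3.00 on the log2 scale (SE 0.061, edgeR adjusted p = 8.22e-19). Per kilobase of exon, FGFR1 and FGFR2 were thus at similar levels in OIM, 58.6 and 48.8 CPM per kilobase, and at 68.7 and 6.11 CPM per kilobase in bFGF. FGFR3 and FGFR4 lay between 0.478 and 1.0 CPM per kilobase in both groups, and neither was called. Downstream of the receptors, the docking proteins GAB1 (log2 fold change -1.07) and FRS2 (-0.51) were lower. The adaptor GRB2, the exchange factor SOS1 and the phosphatase PTPN11 stayed uncalled, with 0.17, -0.14 and -0.02 on the log2 scale. Over the 12 receptors and adaptors tested, 0 were higher and 3 lower, 25% called lower against 18.4% of all genes, and the median was -0.04. Without TMM scaling 1 was higher (FGFR4, 0.51) and 2 were lower, the call of FRS2 was lost (-0.28), and the median was 0.19. FRS2 lost its call in 4 of the fits that left out 1 library, those without OIM replicate 2 or 3 or bFGF replicate 2 or 3.

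Most of the pathway's known inhibitors were called higher. Of 14 tested, 8 were higher and 1 lower, 64.3% against 36.2% of all genes, and the median log2 fold change was 1.20. DUSP6 (chr5:93303058-93307510), a phosphatase specific for ERK, had 10.6, 13.8 and 9.89 CPM in OIM and 45.5, 47.2 and 40.4 CPM in bFGF (log2 fold change 1.95, SE 0.097, edgeR adjusted p = 5.48e-13). SPRY2 (chr11:52153695-52158766, minus strand), a Sprouty protein, had 31.2, 36.6 and 29 CPM in OIM and 96.1, 99.1 and 99.1 CPM in bFGF (log2 fold change 1.6). In both genes the bFGF libraries all lay above the OIM libraries, and OIM replicate 2 was the highest of the OIM libraries. The other members called higher were the nuclear ERK phosphatases DUSP5 (2.65) and DUSP4 (1.95), SPRY1 (1.79), SPRY4 (1.33), IL17RD (1.42), which is also known as SEF, and SPRED1 (1.07). DUSP7, SPRED2 and SPRED3 had log2 fold changes of 0.42, 0.13 and 0.25, and SPRY3 and DUSP9 stayed below 0.4 CPM. The member that fell was FGFRL1, a receptor-like protein without a kinase domain, at 33.6 ± 1.83 CPM in OIM and 9.43 ± 0.509 CPM in bFGF. The list held 0.0325% to 0.0381% of the counts in OIM and 0.0796% to 0.0802% in bFGF.

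**Figure D3:**
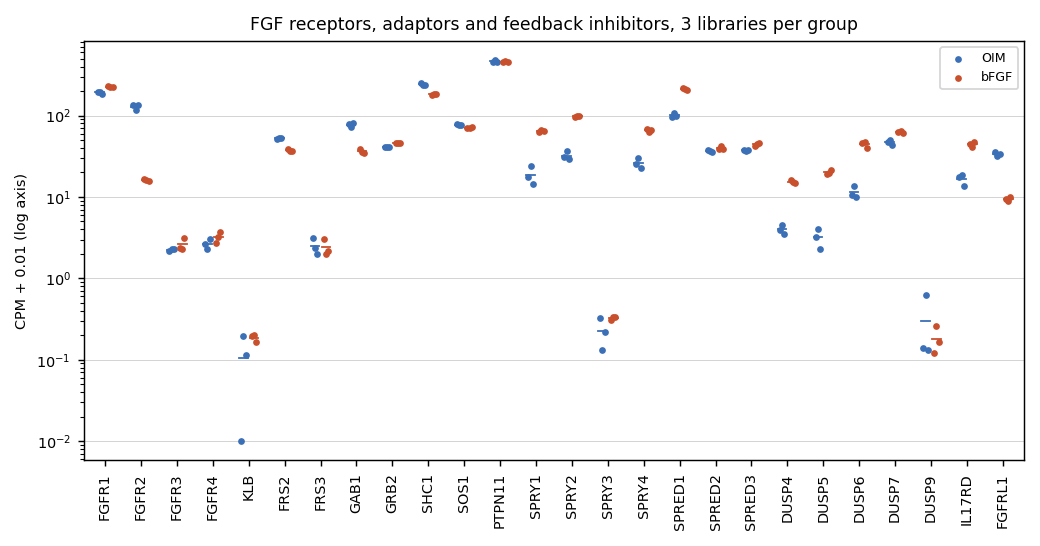
CPM plus 0.01 (log axis) of FGF receptors, adaptors and feedback inhibitors in the 3 OIM (blue) and 3 bFGF (red) libraries, with bars at the group means. FGFR2 and FGFRL1 lie lower and the SPRY1, SPRY2, SPRY4, SPRED1, IL17RD, DUSP4, DUSP5 and DUSP6 points higher with bFGF, while FGFR1, GRB2, SOS1 and PTPN11 move little.

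The ligands moved in both directions. FGF2, the endogenous transcript of the added factor, was at 352, 362 and 346 CPM in OIM and 215, 226 and 203 CPM in bFGF (log2 fold change -0.72), a call lost on library totals alone (-0.50). FGF1 rose from 1.37 ± 0.318 to 13.1 ± 0.201 CPM (3.24) and the intracellular family member FGF13 from 7.91 ± 1.90 to 35.6 ± 0.621 CPM (2.17). FGF11 (-2.02) and FGF9 (-1.31) were lower, and FGF7, the keratinocyte growth factor, had 0.21 at 109 CPM in bFGF. The median over the 9 tested ligands was 0.07.

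Among 25 genes that answer to ERK, most of them transcription factors, 8 were higher and 5 lower (10 and 5 without OIM replicate 2). In all 52% were called, with a median of 0.18. The PEA3-type ETS factor ETV4 had 15.6, 22.4 and 13.5 CPM in OIM and 68.0, 71.8 and 69.9 CPM in bFGF (log2 fold change 2.02), and its relative ETV5 rose by 2.72. EGR1, an immediate early factor, had 39.4, 44.8 and 35.9 CPM in OIM and 101, 141 and 92.7 CPM in bFGF (1.48), and all 3 bFGF values lay above the OIM values. The AP-1 members FOSL1 (1.74) and JUN (1.16) and the early genes EGR2 (2.03), IER2 (0.88) and IER3 (1.08) were higher too. FOSL2 (-0.69), FOSB (-2.55), KLF6 (-0.69), ETS1 (-0.86) and MAFF (-0.85) were lower. On library totals alone 12 were higher and 3 lower, and FOSL2 (-0.47) and KLF6 (-0.47) lost their calls. MYC had a log2 fold change of 0.43 and was not called.

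Heparan sulfate is the co-receptor of FGF2. SULF1, the endosulfatase that trims sulfate groups from these chains, had 489, 496 and 488 CPM in OIM and 195, 209 and 194 CPM in bFGF, a fall of 1.30 on the log2 scale. The core protein syndecan-2 (SDC2) fell from 287 ± 28.8 to 72.9 ± 4.88 CPM (-1.97), glypican-6 (GPC6) by 1.88 and syndecan-3 (SDC3) by 0.67, whereas syndecan-1 (SDC1) rose by 0.81. HS3ST1, a 3-O-sulfotransferase, had 0, 0 and 1 count in the OIM libraries and 0.961 to 1.10 CPM in bFGF, at least 20.5-fold higher against a floor of 3 counts per library. Over the 25 tested genes 5 were higher and 6 lower, 44% called, and the median was -0.10. With library totals as the scale, 7 were higher and 3 lower, with a median of 0.12.

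The contractile and myofibroblast genes were the list with the lowest median. Of 29 tested, 26 were lower, 1 was higher and 2 were not called, against 18.4% lower among all genes, and the median log2 fold change was -1.49. TAGLN (transgelin, an actin-binding protein of smooth muscle) had 3103, 2573 and 3100 CPM in OIM and 793, 866 and 799 CPM in bFGF (-1.84, SE 0.056, edgeR adjusted p = 3.50e-16). CALD1 (caldesmon) had 2306, 1831 and 2269 CPM in OIM and 513, 524 and 492 CPM in bFGF (-2.07). Both groups of libraries were tight, except that OIM replicate 2 was the lowest of the OIM libraries for both genes. The myosin light chain MYL9 fell by 1.91, the kinase MYLK by 2.61, calponins CNN1 by 3.04 and CNN2 by 1.49, and tropomyosins TPM1, TPM2 and TPM4 by 1.55, 1.21 and 1.17. Smaller falls were those of the broadly expressed actin crosslinkers FLNA (-0.95) and ACTN1 (-0.82) and of vinculin, VCL (-1.14). Beside MYH11, large falls were those of the smooth muscle actin ACTG2, by 5.50, from 57.8 ± 16.4 to 1.27 ± 0.249 CPM, and desmin, DES, by 6.09, from 4.06 ± 1.75 to 0.0575 ± 0.0336 CPM. FHL2, a LIM protein, was the only member called higher (1.24, from 215 ± 9.35 to 507 ± 14.6 CPM), and the transcription factor SRF had a log2 fold change of -0.13. The list held 3.07% to 3.61% of the counts in OIM and 1.37% to 1.42% in bFGF. Actin genes are near-identical in sequence, so their reads may have been split between copies.

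SRF binds the CArG box, which is a classical element of smooth muscle promoters, so a few promoters with a match are shown. Windows from 250 bases before to 50 bases after the annotated RefSeq start (Sscrofa11.1) were searched on both strands. A CArG box was found in 7 of 29 contractile genes (24.1%) and in 1.37% of the 13614 windows of all tested genes. It was found in 5 of the 26 genes called lower, in FHL2 and in SRF itself. The match of VCL lies in an exon of another gene and is not shown. The stretches below hold the match in capitals with 20 bases on either side, read on the gene's strand, all upstream of the start. They lie at chr17:39788075-39788124 (plus strand) for MYL9, chr2:61476803-61476852 (minus) for TPM4 and chr2:77385602-77385651 (minus) for CNN2. The CNN2 match overlaps letters that also read as a TATA box core.
MYL9: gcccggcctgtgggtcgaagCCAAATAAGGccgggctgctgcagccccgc
TPM4: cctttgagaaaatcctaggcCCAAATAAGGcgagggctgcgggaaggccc
CNN2: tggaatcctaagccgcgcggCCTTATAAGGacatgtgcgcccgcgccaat
A match describes these letters only and does not show a bound site. The genes shown were lower with bFGF by 1.91, 1.17 and 1.49 on the log2 scale in the order of the lines.

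Genes known as targets of YAP and TEAD, the mechanosensitive transcription factors, were 3 higher, 13 lower and 7 not called of 23, 69.6% called, with a median of -0.80. The matricellular protein CYR61 had 896, 777 and 851 CPM in OIM and 159, 167 and 168 CPM in bFGF (-2.35), and CTGF, its relative, fell from 2410 ± 175 to 696 ± 31.7 CPM (-1.79). AMOTL2 (-1.72), CRIM1 (-1.32) and ANKRD1 (-2.18) were lower as well. NT5E, the ecto-5-prime-nucleotidase CD73, rose by 1.46 and FJX1 by 1.26, and AXL was at the fold limit with 0.50.

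Collagen chains were called lower more often than higher. Of 33 chains tested, 7 were higher and 17 lower, 72.7% called against 36.2% of all genes, with a median of -0.72. The list held 7.74% to 8.14% of the counts in OIM and 4.61% to 4.68% in bFGF, without overlap. Besides type I, COL3A1 fell from 10893 ± 302 to 6606 ± 108 CPM (-0.72), and COL5A1 and COL5A2, which nucleate type I fibrils, fell by 1.26 and 0.99. COL12A1, a fibril-associated collagen, had 7443, 6141 and 7457 CPM in OIM and 1753, 1845 and 1788 CPM in bFGF (-1.97). COL11A1, a minor fibrillar chain of cartilage, fell by 3.13 to 91.7 ± 7.00 CPM, and the basement membrane chains COL4A1 and COL4A2 fell by 1.57 and 1.26. The basement membrane collagen COL18A1, the source of endostatin, rose from 102 ± 9.13 to 315 ± 3.04 CPM (1.62). The anchoring fibril collagen COL7A1 rose by 2.14 to 26.2 ± 0.694 CPM, and the transmembrane collagens COL13A1, COL17A1 and COL23A1 rose by 4.11, 3.05 and 3.42 but stayed under 4 CPM. COL6A3 (-0.07, at 5431 CPM in its higher group) and COL14A1 (-0.07) were not called. The call of COL3A1 was lost on library totals alone (-0.50), as was that of FN1 (-0.36).

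The enzymes that modify collagen were 3 higher and 9 lower of 21, 57.1% called, with a median of -0.48. The split was 4 and 6, with a median of -0.26, on library totals alone. The prolyl hydroxylase subunit P4HA1 had 591, 609 and 615 CPM in OIM and 130, 129 and 123 CPM in bFGF (-2.25, edgeR adjusted p = 8.43e-20), and P4HA2 fell by 2.03. PLOD2, the lysyl hydroxylase of collagen telopeptides, fell by 1.89 and the collagen chaperone SERPINH1 by 0.86. TLL1, a procollagen C-proteinase, rose by 1.75.

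Elastic fibre genes were 3 higher and 11 lower of 22, 63.6% called, with a median of -0.50. Fibrillin-1 (FBN1) had 4790, 4220 and 4860 CPM in OIM and 1670, 1692 and 1645 CPM in bFGF (-1.47), while FBN2, the fetal fibrillin, rose by 1.31 to 97.2 CPM. Elastin (ELN) fell from 227 ± 36.4 to 44.3 ± 4.50 CPM (-2.35). Of the crosslinking enzymes, LOXL2 fell by 1.99 and LOX by 1.30, and LOXL1 rose by 0.62.

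Proteoglycans and hyaluronan genes were 6 higher and 10 lower of 22, 72.7% called, with a median of -0.44. Without TMM scaling 7 were higher and 9 lower, with a median of -0.22. Versican (VCAN), the large hyaluronan-binding proteoglycan of valves, fell from 5019 ± 239 to 2515 ± 26.7 CPM (-1.0), fibromodulin (FMOD) by 1.13 and decorin (DCN) by 0.99. Asporin (ASPN) fell by 2.87, whereas lumican (LUM) had a log2 fold change of 0.01 at 658, 650 and 660 CPM in OIM and 686, 663 and 635 CPM in bFGF. On the hyaluronan side, the synthase HAS3 rose by 2.82 and the receptor CD44 by 0.73, and CEMIP, which binds and degrades hyaluronan, fell from 333, 299 and 323 CPM to 37.5, 40.5 and 37.3 CPM (-3.05). LYVE1, another hyaluronan receptor, was at 0.938 ± 0.389 CPM in OIM and had 0 counts in all 3 bFGF libraries, at least 16.4-fold lower against the floor. Biglycan (BGN) sat at the fold limit with -0.50 and lost its call on library totals alone, with libraries thinned to equal depth and without OIM replicate 1 or bFGF replicate 3.

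Proteases moved apart. Of 23 matrix metalloproteinases, ADAMTS proteases and inhibitors, 4 were higher and 10 lower (6 and 11 without OIM replicate 2), 60.9% called, with a median of -0.26. Without TMM scaling 7 were higher and 8 lower, with a median of -0.04. Besides MMP1, the stromelysin MMP3, which lies close to it on chromosome 9, rose from 0.963 ± 0.259 to 3.56 ± 0.484 CPM (1.88). MMP2, the gelatinase of resting fibroblasts, fell from 2069 ± 81.9 to 1363 ± 72.2 CPM (-0.60), a call lost on library totals alone (-0.38), and MMP14 had 0.09. The aggrecanases split, with ADAMTS4 at 80.3, 93.9 and 76.0 CPM in OIM and 296, 298 and 297 CPM in bFGF (1.83), and ADAMTS5 at 82.5, 94.4 and 85.4 CPM in OIM and 19.3, 19.6 and 18.4 CPM in bFGF (-2.20). The inhibitors TIMP1, TIMP2 and TIMP3 had 0.47, -0.26 and 0.27 and were not called. TIMP4 was called higher (2.62), but it stayed at or below 0.222 CPM in the group means and lost its call without OIM replicate 3 or bFGF replicate 2. TGANTCA, the letters of an AP-1 site with any base in the middle, was found on either strand in 6 of 23 windows of this list (26.1%) and in 4.83% of all windows. Of the 6 genes with a match, 2 were called higher, 3 lower and 1 not. The MMP3 promoter is shown as an example of a gene called higher, at chr9:33454044-33454090 (minus strand).
MMP3: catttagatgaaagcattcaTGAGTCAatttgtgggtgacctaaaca
The match is in capitals, and MMP3 was called higher in bFGF.

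Of 18 genes of coagulation and plasminogen activation, 7 were higher and 5 lower, 66.7% called, with a median of 0.28. The tissue plasminogen activator PLAT had 60.9, 65.2 and 55.8 CPM in OIM and 299, 325 and 319 CPM in bFGF (2.37). The urokinase receptor PLAUR rose by 1.6 and SERPINB2, an inhibitor of urokinase, by 3.87. Tissue factor (F3), the starter of coagulation, had 59.4, 35.7 and 64.3 CPM in OIM and 1.73, 2.67 and 1.65 CPM in bFGF (-4.71). Its inhibitor TFPI went the other way, from 0.0663 ± 0.0454 to 9.73 ± 1.26 CPM (7.12). The libraries did not overlap in any of these.

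Integrins, the matrix receptors, were 7 higher and 8 lower of 20, 75% called, with a median of -0.27 that became -0.05 on library totals alone. Those called higher included, beside ITGA2, the laminin receptors ITGA3 (1.39) and ITGA6 (1.40) and ITGB3 (1.95), a subunit of the vitronectin receptor. The common beta subunit ITGB1 fell from 3268 ± 251 to 1864 ± 32.1 CPM (-0.81). The collagen receptors ITGA1 (-1.04) and ITGA11 (-2.19) were lower, unlike ITGA2. ITGA8 (-2.40) and the muscle laminin receptor ITGA7 (-4.09) were lower too.

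Genes of cell division rose almost without exception. Of 41 DNA replication genes 40 were called higher and 0 lower, 97.6% against 17.7% higher among all genes, with a median log2 fold change of 1.58. The helicase subunit MCM3 had 20.6, 35.2 and 20.9 CPM in OIM and 124, 117 and 126 CPM in bFGF (2.25), and the clamp PCNA had 38.9, 47.8 and 37.7 CPM in OIM and 146, 137 and 141 CPM in bFGF (1.77). OIM replicate 2 was again the highest OIM library, and no OIM library reached the bFGF range. All 34 mitosis genes were higher, with a median of 1.69. Among them, the proliferation marker MKI67 rose from 102 ± 25.6 to 387 ± 9.0 CPM (1.92), topoisomerase TOP2A from 130 ± 22.2 to 419 ± 7.29 CPM (1.69), CCNB1 by 1.89 and CDK1 by 1.74. The single member of the replication list not called was RPA3 (0.38). The replication list held 0.0803% to 0.109% of the counts in OIM and 0.298% to 0.311% in bFGF, and the mitosis list 0.127% to 0.167% and 0.467% to 0.488%.

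The G1 regulators were 8 higher and 4 lower of 16, 75% called, with a median of 0.31. Cyclin D1 (CCND1, chr2:3621242-3633380, minus strand), which growth factors induce, had 380, 469 and 336 CPM in OIM and 1110, 1140 and 1114 CPM in bFGF (1.51, SE 0.075, edgeR adjusted p = 5.26e-13). CCNE1 (1.63), CCNE2 (1.49), CDK2 (1.28) and the RB relative RBL1 (1.44) were higher. The CDK inhibitors CDKN1A (-0.74), CDKN1B (-1.14) and CDKN1C (-1.11) were lower, whereas CDKN2B (1.27) and CDKN2C (0.94) were higher.

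E2F factors drive S phase genes, and 4 of the promoters with an E2F site are shown as examples for this reason. The site was searched as TTTCCCGC, TTTCGCGC, TTTGCCGC or TTTGGCGC on both strands, and it was found in 12 of 41 replication windows (29.3%) and in 4.2% of all windows. The stretches lie at chr15:15923490-15923603 (plus) for MCM6, chr6:897738-897785 (minus) for CDT1, chrX:20756575-20756622 (plus) for POLA1 and chr6:85045975-85046022 (minus) for RPA2, with matches in capitals. MCM6 holds 3 matches, of which the first 2 overlap.
MCM6: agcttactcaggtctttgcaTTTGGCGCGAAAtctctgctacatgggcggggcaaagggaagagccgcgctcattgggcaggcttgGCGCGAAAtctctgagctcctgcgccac
CDT1: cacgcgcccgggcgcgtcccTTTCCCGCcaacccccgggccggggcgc
POLA1: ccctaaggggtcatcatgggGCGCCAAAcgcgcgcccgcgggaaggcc
RPA2: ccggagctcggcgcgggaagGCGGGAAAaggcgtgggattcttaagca
MCM6, another helicase subunit, had 63.2, 77.6 and 63.4 CPM in OIM and 177, 177 and 183 CPM in bFGF (1.39). The licensing factor CDT1 rose by 2.09, the polymerase subunit POLA1 by 1.54 and the single-strand binding subunit RPA2 by 1.41.

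Ribosome biogenesis genes, which make and process ribosomal RNA, rose more modestly. Of 44 tested, 35 were higher and 0 lower, 79.5% called higher against 17.7% of all genes, with a median of 0.65 and 0.223% to 0.246% of the counts in OIM against 0.430% to 0.443% in bFGF. Nucleolin (NCL) had 322, 353 and 317 CPM in OIM and 551, 568 and 572 CPM in bFGF (0.77), nucleophosmin (NPM1) rose by 0.58, the methyltransferase FBL by 1.10 and LYAR by 2.00.

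Glycolysis fell as a group, from glucose uptake to lactate export. Of 21 tested genes 15 were lower and 1 higher, 76.2% called against 36.2% of all genes, with a median of -1.22. The glucose transporter SLC2A1 had 262, 250 and 252 CPM in OIM and 65.4, 71.8 and 68.7 CPM in bFGF (-1.89). PGK1, phosphoglycerate kinase, fell from 610 ± 20.6 to 241 ± 3.77 CPM (-1.34), HK2 by 1.59, PFKL by 1.22, ALDOA by 1.22, TPI1 by 1.57 and ENO1 by 0.93. LDHA, which makes lactate, fell from 1263 ± 31.8 to 534 ± 18.1 CPM (-1.24), while LDHB, the sister subunit of lactate dehydrogenase, rose from 161 ± 9.72 to 307 ± 3.67 CPM (0.93). PKM (-0.24) and GAPDH (-0.29) were not called. The groups did not overlap for SLC2A1, PGK1, LDHA or LDHB.

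The genes known to answer to hypoxia-inducible factor were lower in 20 of 23 and higher in none, 87.0% called lower against 18.4% of all genes, with a median of -1.42. PDK1, the kinase that shuts pyruvate dehydrogenase, had 147, 143 and 148 CPM in OIM and 17.9, 18.9 and 18.7 CPM in bFGF (-2.98, SE 0.045, edgeR adjusted p = 4.17e-20). BNIP3 had 235, 252 and 237 CPM in OIM and 22.4, 21.8 and 23.2 CPM in bFGF. The oxygen sensors EGLN3 (-3.18) and EGLN1 (-1.38), the mTORC1 inhibitor DDIT4 (-1.40), adrenomedullin (ADM, -2.83) and NDUFA4L2 (-4.24) were lower. VEGFA, the angiogenic factor, was an exception at 540, 635 and 531 CPM in OIM and 492, 512 and 480 CPM in bFGF (-0.20, not called). Oxygen in the cultures was not measured. P4HA1, P4HA2, LOX and HK2 also stand in the matrix or glycolysis lists.

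ACGTG is the core letters of the site that hypoxia-inducible factors bind, and it is short and common. It was found on either strand in 11 of 20 glycolysis windows (55.0%), 11 of 23 hypoxia windows (47.8%) and 24.9% of all windows. The stretches, with matches in capitals, lie at chrX:62187248-62187311 (plus) for PGK1, chr6:69401672-69401853 (minus) for ENO1, chr13:207167133-207167272 (plus) for PFKL, chr14:108822641-108822685 (plus) for PGAM1, chr14:140372149-140372193 (minus) for BNIP3 and chr14:75117566-75117610 (plus) for DDIT4.
PGK1: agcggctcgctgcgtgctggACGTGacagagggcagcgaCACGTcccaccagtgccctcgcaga
ENO1: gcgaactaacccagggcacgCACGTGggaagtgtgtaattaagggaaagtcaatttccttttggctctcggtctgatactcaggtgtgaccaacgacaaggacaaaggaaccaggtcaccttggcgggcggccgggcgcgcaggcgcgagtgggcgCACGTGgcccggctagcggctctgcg
PFKL: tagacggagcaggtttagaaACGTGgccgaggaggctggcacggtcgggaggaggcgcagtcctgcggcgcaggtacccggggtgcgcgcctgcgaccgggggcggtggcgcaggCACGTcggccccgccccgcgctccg
PGAM1: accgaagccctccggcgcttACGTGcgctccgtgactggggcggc
BNIP3: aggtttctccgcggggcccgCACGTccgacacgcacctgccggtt
DDIT4: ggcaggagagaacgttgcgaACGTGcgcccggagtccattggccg
A match on the other strand reads CACGT, and in ENO1 the matches on both strands overlap in CACGTG. The BNIP3 stretch reaches into an exon of another gene. PGAM1, a phosphoglycerate mutase, fell by 0.67.

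Lipid synthesis rose in part. Of 31 genes of cholesterol and fatty acid synthesis 14 were higher and 1 lower, 48.4% called against 36.2% of all genes, with a median of 0.40, and they held 0.574% to 0.607% of the counts in OIM and 0.852% to 0.889% in bFGF. ACLY, which makes cytosolic acetyl-CoA, rose by 0.74, whereas the desaturase SCD fell by 0.55, a call lost on library totals alone (-0.33), where 17 genes were higher and 0 lower. The transcription factors SREBF1 (0.19) and SREBF2 (0.03) were not called.

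Amino acid response genes were 5 higher and 10 lower of 30, 50% called, with a median of -0.32. On library totals alone 5 were higher and 5 lower, with a median of -0.10. The cystine transporter SLC7A11 rose by 0.92 and PHGDH, the entry enzyme of serine synthesis, by 0.74. SHMT2, a mitochondrial enzyme of serine use, fell from 272 ± 1.33 to 164 ± 1.24 CPM (-0.73), and ASNS (0.21) and ATF4 (0.10) were not called.

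**Figure D4:**
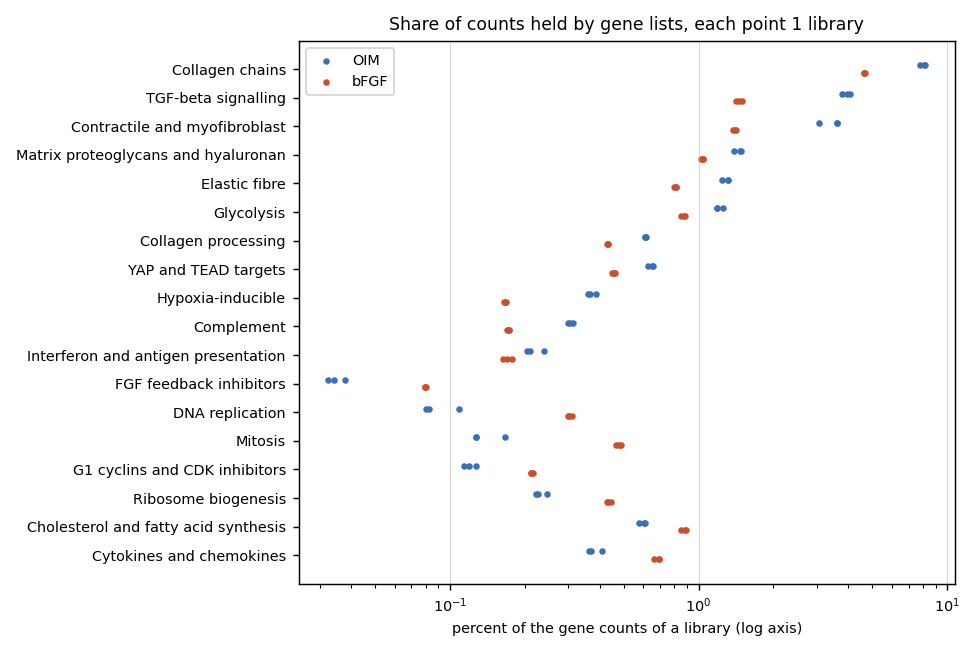
Percent of a library's gene counts held by selected gene lists (log axis), each point 1 library, OIM in blue and bFGF in red. The collagen list goes from 7.74% to 8.14% down to 4.61% to 4.68% and the DNA replication list from 0.0803% to 0.109% up to 0.298% to 0.311%, and no list shown has overlapping groups.

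The genes most tied to mineral gave no uniform picture. Of 21 mineral and bone matrix genes 8 were higher and 6 lower, 66.7% called, with a median of 0.06. Osteopontin (SPP1) had 34, 35.3 and 35.6 CPM in OIM and 8.88, 10.1 and 9.89 CPM in bFGF, a fall of 1.86 on the log2 scale (SE 0.070, edgeR adjusted p = 7.76e-15). Osteonectin (SPARC), a collagen-binding bone matrix protein, fell from 5481 ± 445 to 1564 ± 25.1 CPM (-1.81). ANKH, which exports the mineralization inhibitor pyrophosphate, had 22.6, 27.7 and 24.6 CPM in OIM and 118, 122 and 115 CPM in bFGF (2.24), and the phosphate transporter SLC20A1 rose by 0.99. The matrix Gla protein MGP, an inhibitor of mineralization, had 187, 168 and 198 CPM in OIM and 231, 243 and 206 CPM in bFGF (0.30, not called, but called with 0.52 on library totals alone). ENPP1, which makes pyrophosphate, had -0.23. Osteocalcin (BGLAP) lay near the detection limit at 0.443, 0.752 and 0.438 CPM in OIM and 1.34, 1.42 and 0.673 CPM in bFGF, and the groups overlapped. Its log2 fold change of 1.06 (SE 0.40, edgeR adjusted p = 0.0232) was called, but the call was lost without OIM replicate 1, OIM replicate 3, bFGF replicate 1 or bFGF replicate 2. ALPL, the alkaline phosphatase of bone, had 9, 15 and 1 counts in OIM and 1, 3 and 1 in bFGF, too few to test. IBSP, bone sialoprotein, had 0, 1 and 4 counts in OIM and 0, 0 and 1 in bFGF and was not tested either. Osteoprotegerin (TNFRSF11B), the decoy for the osteoclast factor RANKL, fell from 7.28 ± 1.81 to 0.539 ± 0.252 CPM (-3.75). RANKL itself (TNFSF11) had no count in OIM and 0.269 to 0.522 CPM in bFGF, at least 7.52-fold higher against the floor.

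The transcription factors of bone and cartilage were 4 higher and 4 lower of 16, 50% called, with a median of 0.00. RUNX2, the master factor of osteoblasts, had 48.0, 48.0 and 47.4 CPM in OIM and 46, 43.7 and 42.5 CPM in bFGF, a log2 fold change of -0.12 (SE 0.049, edgeR adjusted p = 0.040) under the fold limit. SOX9, the cartilage factor, had -0.12, MSX2 had 0.23, and SP7, the osteoblast factor osterix, had 0, 0 and 0 counts in OIM and 0, 1 and 10 in bFGF and was not tested. Those called higher were ZNF521, from 50.4 ± 1.91 to 80.7 ± 3.35 CPM (0.68), TWIST2, from 4.09 ± 0.634 to 7.63 ± 0.455 CPM (0.90), SOX5, a partner of SOX9 in cartilage, from 41.6 ± 4.29 to 60.3 ± 3.29 CPM (0.53, a call lost without OIM replicate 1), and RUNX3, which stayed at or below 0.395 CPM in the group means. SOX6 fell from 102 ± 13 to 33.3 ± 1.38 CPM (-1.61) and NFATC1, which is active in valve endocardium and osteoclasts, from 38 ± 3.65 to 7.62 ± 0.711 CPM (-2.32). DLX5 had 0.191 ± 0.176 CPM in OIM and no count in bFGF, at least 3.35-fold lower against the floor.

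BMP pathway genes were 7 higher and 14 lower of 32, 65.6% called, with a median of -0.42. The split was 7 and 11, with a median of -0.20, on library totals alone. BMP2, an osteogenic ligand, had 2.69, 4.96 and 4.08 CPM in OIM and 15.7, 13.6 and 15.4 CPM in bFGF (1.92), while BMP4 (-0.65) and BMP3 (-3.74) were lower. The direct BMP targets split, with ID1 higher (0.62, to 30.1 ± 0.633 CPM) and ID3, at 308, 280 and 283 CPM in OIM and 98.0, 108 and 104 CPM in bFGF, lower (-1.49), as was ID2 (-0.97).

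TGF-beta pathway genes were 2 higher and 13 lower of 23, 65.2% called, with a median of -0.57. On library totals alone 3 were higher and 10 lower, with a median of -0.35. The ligand TGFB1 rose from 15.4, 16.4 and 11.7 CPM to 68.4, 70.8 and 70.9 CPM (2.27, SE 0.088, edgeR adjusted p = 1.09e-14) and its receptor TGFBR2 by 0.80. The ligands TGFB2 (-0.83) and TGFB3, at 301 ± 36 and 94.3 ± 0.505 CPM (-1.68), and the activin subunit INHBA (-2.03) were lower. The targets SMAD7 (-0.57), PMEPA1 (-0.93), SKIL (-0.69) and TGFBI (-0.55) were lower as well. The list held 3.76% to 4.08% of the counts in OIM and 1.42% to 1.5% in bFGF, most of it THBS1.

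Wnt pathway genes were 8 higher and 15 lower of 35, 65.7% called, with a median of -0.42. The split was 10 and 11, with a median of -0.20, on library totals alone. The non-canonical ligand WNT5A had 6.42, 6.48 and 5.13 CPM in OIM and 37.9, 37.5 and 38.3 CPM in bFGF (2.66). LEF1, a transcription factor of the beta-catenin branch, rose by 2.04, and AXIN2, a common target of that branch, had 0.19 and was not called. The frizzled receptors FZD7 (-1.41), FZD2 (-1.57) and FZD8 (-1.99) and the secreted DKK3 (-0.57, and -0.35 without a call on library totals alone) were lower, and SFRP1 had 0.08 at 730 CPM in its higher group.

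Notch genes were 3 higher and 10 lower of 17, 76.5% called, with a median of -0.66. With library totals as the scale, 4 were higher and 8 lower, with a median of -0.44. NOTCH3, the receptor of mural cells, had 55.1, 45.4 and 54.4 CPM in OIM and 9.96, 10.4 and 7.08 CPM in bFGF (-2.50), and the ligand JAG1 (-1.11) and the targets HES1 (-1.66), HEY1 (-1.07) and HEYL (-2.53) were lower. HEY2 rose by 0.56, and the receptor NOTCH2 had 0.01.

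Other growth factor systems moved strongly in both directions, 14 higher and 13 lower of 38, 71.1% called, with a median of -0.11 that became 0.11 on library totals alone. The EGF receptor ligands amphiregulin (AREG) and epiregulin (EREG) rose from 0.405 ± 0.184 to 27.7 ± 3.68 CPM (6.08) and from 0.389 ± 0.318 to 17.1 ± 2.1 CPM (5.39), and HBEGF rose by 1.19, while their receptor EGFR had -0.16. Both HGF and its receptor MET rose, MET from 19.2, 23.8 and 16.4 CPM to 88.7, 82.3 and 91.8 CPM (2.14). The VEGF family members PGF (2.87) and VEGFC (1.46) and the receptor FLT1 (3.01) were higher. IGF1 had 833, 725 and 815 CPM in OIM and 138, 134 and 117 CPM in bFGF (-2.61), IGF2 fell by 2.32 and the binding proteins IGFBP4 and IGFBP5 by 2.58 and 1.55. PDGFRA (-0.06) and PDGFRB (0.13), the PDGF receptors of mesenchymal cells, were not called.

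Cytokines and chemokines were 12 higher and 10 lower of 31, 71% called, with a median of -0.01 that became 0.21 on library totals alone. Together the members held 0.364% to 0.411% of the counts in OIM and 0.663% to 0.693% in bFGF. IL6 had 106, 136 and 117 CPM in OIM and 491, 508 and 472 CPM in bFGF (2.03). LIF (1.69) and IL11, which signal through the same receptor subunit as IL6, and that subunit, IL6ST (0.59), were higher, and so was the neutrophil chemokine CXCL8 (1.14). OSMR, the oncostatin M receptor, was lower (-1.57), as were the adhesion molecule ICAM1 (-0.68), NOS2 (-4.14) and CXCL14 (-3.97). The call of ICAM1 was lost on library totals alone (-0.46).

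Complement genes were 2 higher and 15 lower of 26, 65.4% called, with a median of -0.66. C3, the central component, had 334, 350 and 343 CPM in OIM and 49.7, 47.6 and 41.3 CPM in bFGF (-2.89), and the proteases C1S (-1.90) and C1R (-1.55) and clusterin (CLU, -1.54) were lower. MASP1 (1.05) and COLEC12 (1.87) were higher. With library totals as the scale, 4 were higher and 11 lower.

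Interferon-stimulated and antigen presentation genes were 0 higher and 18 lower of 42 (22 lower without OIM replicate 2), 42.9% called lower against 18.4% of all genes, with a median of -0.49. MX1, an antiviral GTPase, had 207, 205 and 245 CPM in OIM and 137, 123 and 132 CPM in bFGF, without overlap (-0.74). IFIT1 (-1.71) and RSAD2 (-1.28) were lower, and B2M (-0.48) and OAS2 (-0.49) lay just under the fold limit. Without TMM scaling 10 were lower.

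Oxidant defence genes were 6 higher and 3 lower of 28 (8 and 3 without OIM replicate 2), 32.1% called against 36.2% of all genes, with a median of 0.15. On library totals alone 10 were higher and 2 lower. Catalase (CAT), which breaks down hydrogen peroxide, had 52.3, 52.2 and 49.5 CPM in OIM and 58.3, 57.7 and 57.5 CPM in bFGF. The groups did not overlap, and the log2 fold change of 0.17 (SE 0.048, edgeR adjusted p = 0.00358) stayed under the fold limit. The peroxiredoxin PRDX1 had 287, 292 and 291 CPM in OIM and 569, 559 and 566 CPM in bFGF (0.96), and NQO1, a target of NRF2, rose by 0.57. The mitochondrial superoxide dismutase SOD2 fell from 615 ± 27.4 to 204 ± 12 CPM (-1.59), and the peroxide-producing oxidase NOX4 by 0.89.

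Adipogenic and lipid handling genes were 5 higher and 7 lower of 21, 57.1% called, with a median of -0.29. The fatty acid binding protein FABP3 rose from 35 ± 3.85 to 180 ± 14.3 CPM (2.36), and the transcription factor CEBPD fell from 375 ± 11.8 to 85.1 ± 2.52 CPM (-2.14). Transcription factors of valve development were 5 higher and 10 lower of 25, 60% called, with a median of -0.10 that became 0.12 on library totals alone. TBX3 rose by 1.44 and PRRX1, a factor of mesenchymal cells, fell from 931 ± 9.85 to 511 ± 10.1 CPM (-0.86), while ZEB2 had 0.06. Genes of cell death and DNA damage were 0 higher and 6 lower of 14, 42.9% called lower against 18.4% of all genes, with a median of -0.19, and BAX had 0.06. With library totals as the scale, 3 were higher and 5 lower, with a median of 0.04. The precursor protein APP fell from 1260 ± 24.7 to 852 ± 16.7 CPM (-0.56), a call lost on library totals alone (-0.34), and the calcium-binding S100A2 had 0.37 (123 ± 14 and 158 ± 3.94 CPM, not called, but called with 0.59 on library totals alone).

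**Figure D5:**
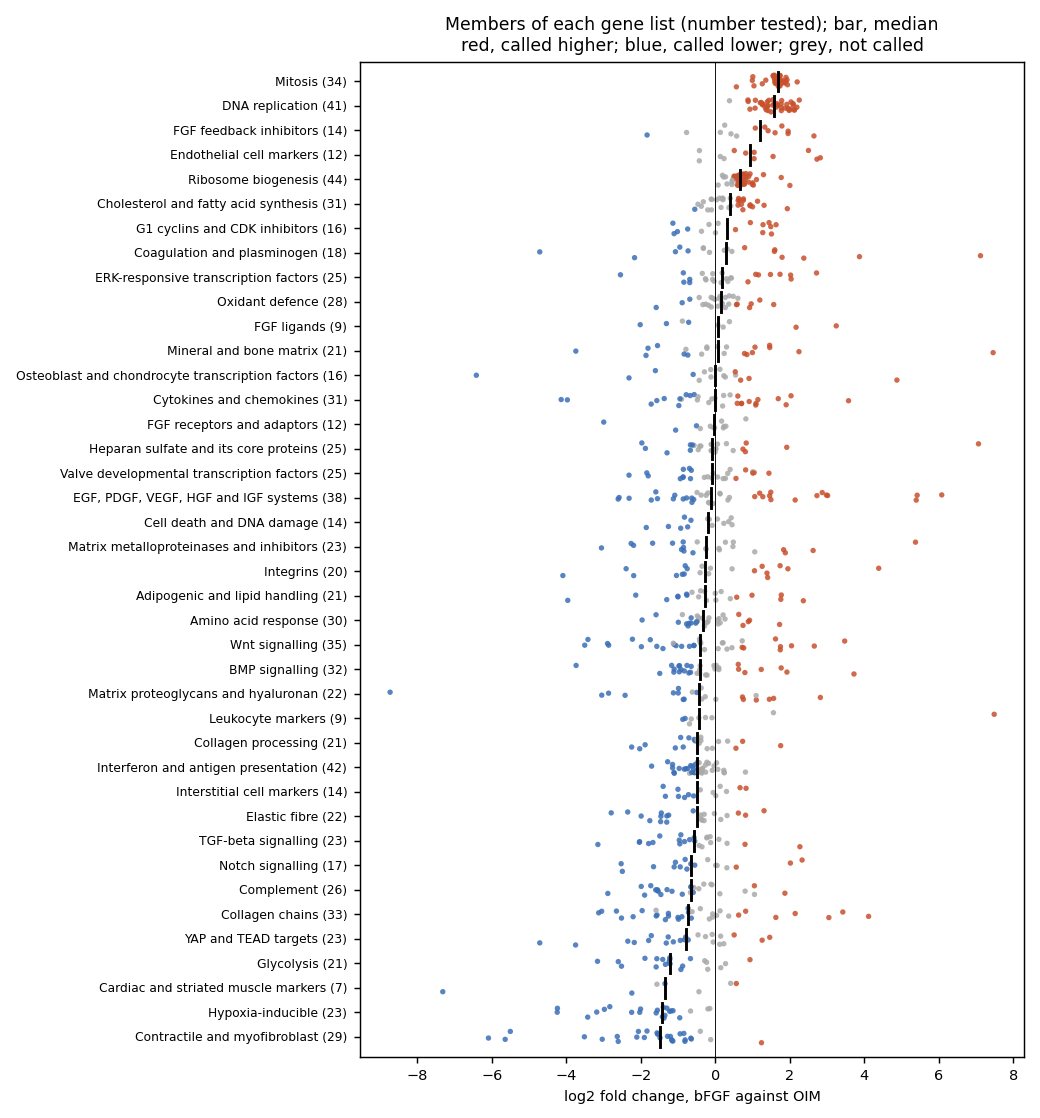
Log2 fold change (bFGF against OIM) of each tested member of 40 gene lists, 1 point per gene, red if called higher, blue if called lower and grey if not called, with a black bar at the list's median and the number tested beside its name. Mitosis, DNA replication and feedback inhibitors head the plot with medians of 1.69, 1.58 and 1.20, and the contractile list closes it at -1.49.

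Markers of other cell types were checked beside these lists. Of 12 endothelial markers tested, 8 were higher and 0 lower, 66.7% called higher against 17.7% of all genes, with a median of 0.93, and they held 0.00842% to 0.00888% of the counts in OIM and 0.0192% to 0.0201% in bFGF. Most of this was the transcription factor ERG, at 67.8, 66.2 and 66.4 CPM in OIM and 134, 143 and 135 CPM in bFGF (1.04). The defining marker VWF had 0.303 ± 0.249 CPM in OIM and 0.228 ± 0.0974 CPM in bFGF, CDH5 had 8.24 CPM and PECAM1 20.7 CPM in bFGF, and KDR rose from 0.169 ± 0.186 to 1.17 ± 0.251 CPM. The part of endothelial cells in the higher values of PGF, FLT1 and KDR was not tested. Of 9 leukocyte markers tested 1 was higher and 2 lower, 33.3% called, all of them at or below 13.5 CPM, and FCGR1A, with no count in OIM, was at least 7.68-fold higher against the floor. Of 7 cardiac and striated muscle markers 1 was higher and 3 lower, 57.1% called against 36.2% of all genes. The rise was that of TNNI3 (0.56). It lost its call without OIM replicate 2 or 3, bFGF replicate 1 or 3, or control replicate 2. ACTA1, the skeletal muscle actin, fell from 6.45 ± 3.49 to 0.0385 ± 0.0384 CPM, with the same caution on reads shared between actin genes. Of the 14 interstitial markers 2 were higher and 7 lower, 64.3% called, with a median of -0.49. On library totals alone 3 were higher and 5 lower, with a median of -0.27. The list held 7.52% to 7.61% of the counts in OIM and 5.37% to 5.44% in bFGF.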

How the data were processed

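The authors deposited 1 table of estimated counts (expected counts, not normalized) over all libraries, with 19535 gene rows that hold whole numbers and 16067 other rows (non-coding transcripts and circular RNAs) not used here. The labels name Trimmomatic, HISAT2 and StringTie, the build Sscrofa11.1, removal of ribosomal RNA and a stranded kit, whereas the study's methods name poly-A selection, Cutadapt and STAR. The counting program and its strand setting are not given in the sources used here, so reads of overlapping genes may be mixed. The table also had 19 columns without a name or a value, not used here, and 25 gene symbols altered to dates, not named here.

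Gene counts were filtered with filterByExpr, scaled with TMM and tested with edgeR's quasi-likelihood test (edgeR 4.0.16, R 4.3.3) over the 9 libraries in 3 groups, and p-values were adjusted by Benjamini-Hochberg over all genes tested. The thresholds of 0.05 and 0.5 follow the study's methods. DESeq2 1.42.0 was an alternative. The script was tested on simulated data. The residual degrees of freedom were 6 and the common biological coefficient of variation 0.0602, and depth was 46773376 to 67371523 gene counts. A floor of 3 counts per library gives the bounds for genes at 0, and it covers counting error only.

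The members, the 41 gene lists and the rule for named genes were chosen with earlier results of these data known. The rule took the 8 largest fold changes at 100 CPM or more and the 5 largest CPM differences in each direction, every FGF receptor, adaptor and feedback inhibitor, in each other list up to 4 called members per direction and 1 uncalled member by level, and 9 genes of the study (SPP1, ITGA2, S100A2, APP, ZEB2, BGLAP, RUNX2, IBSP and CAT). Chosen after their values were seen were ACTG2, ACTN1, ADM, ALPL, ANKRD1, AREG, ASNS, ASPN, AXIN2, B2M, BAX, BMP3, BMP4, CALD1, CCNB1, CCNE1, CCNE2, CDK1, CDK2, CDKN2B, CDT1, CEMIP, CNN1, CNN2, COL11A1, COL13A1, COL14A1, COL17A1, COL23A1, COL4A1, COL4A2, COL5A1, COL5A2, CXCL14, CXCL8, DES, EGFR, EGLN1, EGLN3, EGR2, ELN, ENPP1, EREG, ETV5, FBL, FLT1, FOSB, FZD8, GAPDH, GPC6, HBEGF, HES1, HEY1, HEYL, HK2, ID2, IER2, IFIT1, IGF2, IGFBP4, IGFBP5, ITGA11, ITGA7, JUN, KDR, LIF, LUM, LYAR, LYVE1, MCM3, MSX2, MYC, MYL9, MYLK, NDUFA4L2, NOS2, PCNA, PDGFRB, PDK1, PFKL, PGAM1, PGF, PMEPA1, POLA1, RPA2, RSAD2, SDC3, SKIL, SLC2A1, SMAD7, SP7, SREBF1, SREBF2, SRF, TFPI, TGFB2, TGFB3, TGFBI, TIMP1, TIMP2, TIMP3, TNFRSF11B, TNFSF11, TPI1, TPM1, TPM2, VCL and VWF. Some list members, such as COL6A1, COL6A2, MCM5, HAS2, NOTCH1 and HMOX1, were not analysed here, and a few other results are not reported here. Positions and promoter sequences are from RefSeq on Sscrofa11.1.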

Additional observations from a re-analysis of the deposited data

How the results depend on the processing

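The counts of 2420 genes higher and 2519 lower stayed within 1.5 times under 6 alternatives, with DESeq2 (2466 and 2555), median-of-ratios size factors (2423 and 2514), only the 6 OIM and bFGF libraries (2408 and 2469), no filter on low counts (2432 and 2571), at least 50 counts in 3 libraries (2228 and 2348) and libraries thinned to equal depth (2427 and 2491). Leaving out 1 library in turn gave 2327 to 2584 higher and 2421 to 2529 lower, and 4193 of the 4939 calls were made in all 9 of these fits. On library totals alone, with no TMM scaling, 3733 were higher and 1694 lower, since every gene shifts by the change in scale. Without a fold limit 4620 were higher and 4583 lower, and with a log2 fold limit of 1 there were 1216 and 1245. Replicate numbers are shared between the groups, but the deviations of same-numbered libraries had correlations of 0.0035, -0.0266 and -0.032. No pairing by number was thus seen over all genes tested. Counting noise enters these values, so they cannot tell whether same-numbered libraries share an animal or batch. A replicate block gave 2413 and 2504. Of 310 genes named by the rule 257 were called, and 153 of them kept call and direction in every setting that tested them. A setting whose filter removed a gene was skipped for that gene, as can happen near the floor. Of those called, 0 were reversed. Calls lost when 1 library was left out were, besides those named above, those of AXL, FABP5, GPC2, CD163, CDH5, SLA-1 and TBX2, and OAS2 and VCAM1 gained a call. On library totals alone 21 named calls were lost and 7 gained. Those not given above were the losses of ALDH1L2, CD163, FSTL3, IGF1R, NDST1, PRDX6, RUNX1, SLA-1 and SULF2 and the gains of CCNG1, DUSP7, RPA3 and TTN. Uncalled values near 0 could change sign and were not counted as reversed. Depth limits genes such as ALPL, IBSP and SP7, for which a difference could not be read at these counts.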
